A study of Mus musculus with 216 samples.

Results

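The lung transcriptome of young male mice was compared with those of 5 other organs of the same age. The 12 young lung libraries were set against the 60 young libraries of adrenal, heart, hypothalamus, kidney and muscle, 12 per tissue, across all genes, and these 72 libraries were chosen by their labels from the 216 of the series. The series covers 3 ages, and this comparison uses the youngest, 6 months. All groups were males of strain C57B6/J-NIA with no genotype change or drug treatment named. In each tissue 1 library was made from polyadenylated RNA at every circadian time from 18 to 62 h in steps of 4 h, and the design describes 2 samples pooled into each. Nothing states that pools at different times or in different tissues came from separate animals, so the p-values measure the spread between these libraries. Lung libraries held 20993393 to 25804750 counts, and those of the other tissues ranged from 9438150 in heart to 29416159 in hypothalamus. Levels are given in CPM (counts per 1000000 counts of the library), as the lowest and highest of 12 libraries with the median, and are compared for 1 gene between tissues, not between genes.

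The lung carries air to a very thin gas exchange surface. Alveolar type 1 cells spread over most of that surface, and type 2 cells secrete surfactant, a film of phospholipid and surfactant proteins that keeps the air spaces open. Club, goblet and ciliated cells line the airways and clear particles in mucus, a dense capillary bed receives the whole output of the right heart, and macrophages patrol the air spaces. In whole tissue, fewer cells of a type and less RNA per cell cannot be told apart.

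Both lung markers separated the tissues fully. Sftpc, which encodes the surfactant protein made by type 2 cells (Chr 14, 70520949 to 70524081, minus strand, GENCODE annotation of GRCm38), was at 3551 to 4699 CPM (median 4088) in lung. It was at 25.95 to 116 CPM in muscle, 0.0605 to 2.601 CPM in adrenal and no more than 0.687 CPM in any hypothalamus, heart or kidney library. Scgb1a1, the club cell secretoglobin (Chr 19, 9083636 to 9087958, minus strand), was at 1601 to 2072 CPM (median 1952) in lung and 37.3 to 136 CPM in muscle. It did not exceed 0.154 CPM in a library of the other 4 tissues. No lung library overlapped any other library for either marker, and muscle was the nearest tissue, at a log2 difference of 5.28 (SE 0.21, adjusted p = 3.2e-29) for Sftpc and 3.78 (SE 0.14, adjusted p = 2.7e-27) for Scgb1a1 in the quasi-likelihood test of edgeR (p adjusted by Benjamini-Hochberg over all genes). Of markers of the other organs, Cyp11b1, Avp and Irx4 had no count in any lung library, and Umod reached 2.36 CPM in 1. Other such markers were counted in every lung library. Agrp of the hypothalamus list was at 1.91 to 6.16 CPM, and the adrenal list summed to 2.60 to 11.7 CPM (median 5.57). Muscle markers were present in every lung library: the skeletal muscle list of 6 genes summed to 125 to 879 CPM (median 254), against 48903 to 63176 CPM in muscle, and the heart muscle list to 96.95 to 1449 CPM, against 40904 to 48228 CPM in heart.

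**Figure D1:**
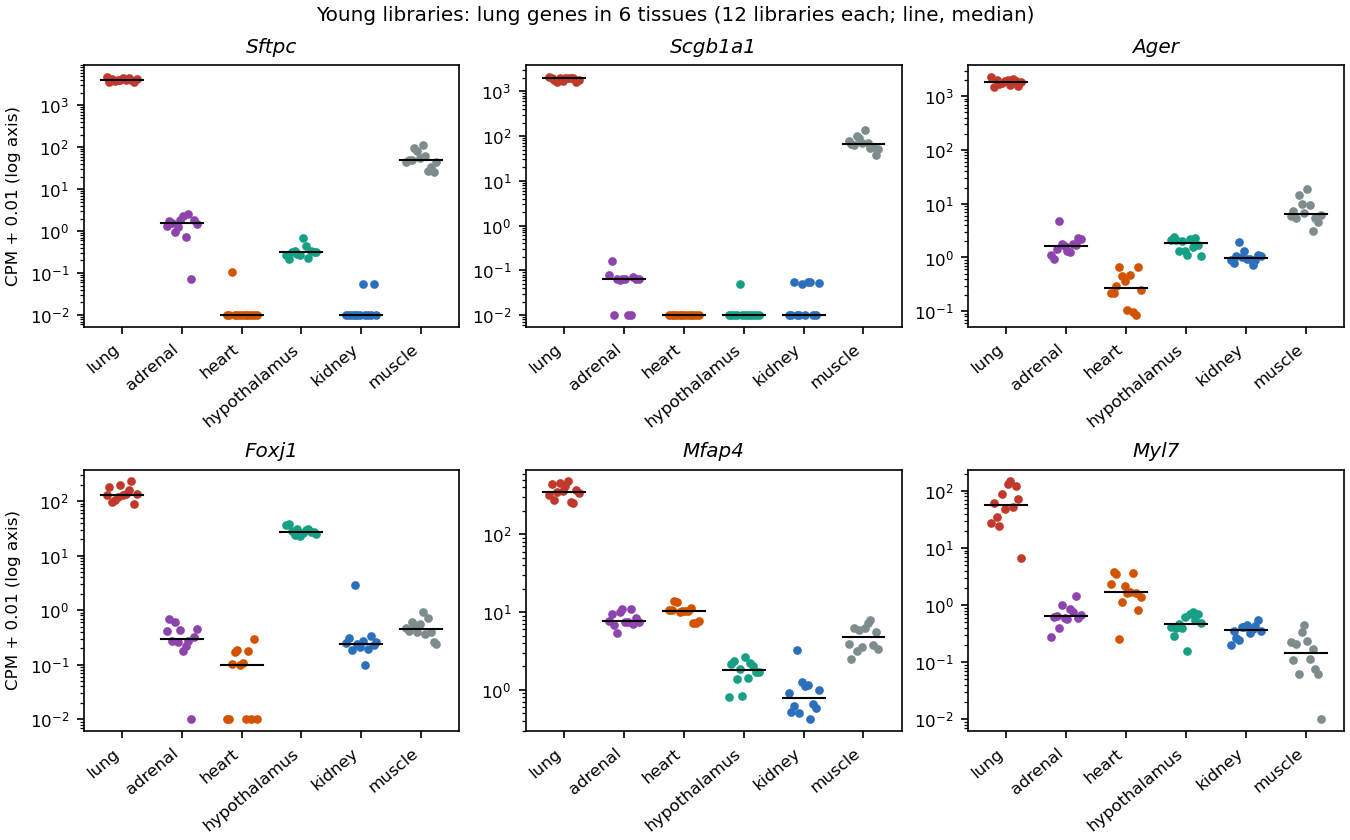
Level of 6 genes in each young library of 6 tissues, as CPM + 0.01 on a log axis; points are single libraries and lines are medians. Each of the 6 genes lay higher in all 12 lung libraries than in any library of another tissue. Muscle held the next highest Sftpc and Scgb1a1 levels, hypothalamus the next highest Foxj1, and Myl7 spread from 6.56 to 146 CPM within lung.

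Of 20682 genes tested, 2884 (13.9%) were higher in lung than in each of the 5 other tissues and 1887 (9.12%) were lower than in each, every 1 of the 5 contrasts passing an adjusted p of 0.05. At a fold of 4 or more in each contrast, 621 genes were higher (3%) and 83 were lower (0.401%). These 621 genes, called lung-high below, made up 6.46% to 7.59% of the counts of each lung library and at most 0.642% of those of any other library. In 516 of them (83.1%) the lowest lung library lay above the highest of the 60 others, against 7.85% of all genes tested. The 621 genes were chosen in these same libraries for lying above every tissue, so their high share is not independent support. The tissue nearest to lung was hypothalamus for 188 of the lung-high genes, adrenal for 182, muscle for 91, kidney for 86 and heart for 74. The smallest of the 5 differences was 2.0004 for Tent5b, just inside the log2 fold of 2, and 1.9993 for Hes2 and 1.996 for Clec4n, just outside it.

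Against the mean of the 5 tissues, 9038 genes were higher (43.7%) and 7633 lower (36.9%), so that 80.6% were called. This mean is an average of the 5 tissues' log2 levels, each tissue weighing equally. Scaling by library totals alone, in place of trimmed means, moved the median difference of all genes from 0.00 to 0.43 on the log2 scale. The share of these calls that were higher then went from 54.2% to 71.97%. An adrenal library stood apart: at circadian time 54 h its 3 adrenal steroid genes summed to 327 CPM, against 6995 CPM in the next lowest, and without it 656 genes were lung-high.

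Surfactant and type 2 cell genes were higher in lung, apart from a pair of genes that were higher in kidney. Of 15 genes listed for type 2 cells, 13 were higher than in each of the 5 tissues, where 13.9% of all genes were, and 11 at a fold of 4 or more. Counts of list genes higher or lower than in each tissue, here and below, are to be read beside 13.9% and 9.12% of all genes. The list's median difference to the mean of 5 tissues was 6.83, against 0.00 for all genes. Sftpb, the protein that spreads the surfactant film, was at 2007 to 2752 CPM (median 2352) in lung and at most 25.6 CPM elsewhere, in muscle. It had no count in the 12 adrenal libraries, so that with 3 counts over the group as a floor lung was at least 171132-fold higher. Sftpa1 and Sftpd, collectins that bind microbes in the lining fluid, were at 2181 to 3081 CPM and 542 to 865 CPM in lung. Their smallest differences, both to muscle, were 6.91 (SE 0.25) and 7.39 (SE 0.22). Cxcl15, a chemokine of lung epithelium, was at 624 to 1733 CPM (median 1010.1), and Slc34a2, the phosphate transporter of type 2 cells, at 1517 to 1993 CPM (median 1809). Neither overlapped any of the 60 other libraries.

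The list's remaining members, Napsa and Abca3, were higher in kidney. Napsa, a protease that processes surfactant protein precursors, was at 276 to 425 CPM (median 374) in lung and 1059.7 to 1389 CPM (median 1244) in kidney, and Abca3, the lipid pump of lamellar bodies, at 358 to 605 CPM (median 478) and 665 to 940.4 CPM (median 874). The differences, lung minus kidney, were -2.15 (SE 0.32, adjusted p = 1.3e-08) and -1.25 (SE 0.07, adjusted p = 6.1e-25) in edgeR's test. Both genes were higher in lung than in the other 4 tissues.

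Fewer genes that make and recycle the lipid of surfactant passed. Of 23 tested, 9 were higher than in each tissue and 0 lower, beside 13.9% and 9.12% of all genes, at a list median of 2.003. The 9 include Sftpb, Sftpc, Lamp3, Lpcat1 and Ctsh, which are also on the type 2 cell list. Lpcat1, which remodels the saturated phosphatidylcholine of surfactant, was at 413 to 568 CPM (median 477) in lung and 54.5 to 63.7 CPM in hypothalamus, the nearest tissue. Pla2g1b, a secreted phospholipase, was at 6.55 to 11.2 CPM (median 9.87) and had a smallest difference of 6.63 (SE 0.33). Prdx6, a peroxiredoxin with phospholipase activity, was at 983 to 1709 CPM in lung and 262 to 299 CPM in heart. The general enzymes of fatty acid synthesis did not follow: Fasn was at 259.7 to 639 CPM in lung and 4667 to 12634 CPM in adrenal, and Scd1 at 835 to 2631 CPM and 6897 to 18506 CPM. Pcyt1a, the rate-limiting enzyme of phosphatidylcholine synthesis, differed from the mean of 5 tissues by -0.12 (adjusted p = 0.008, edgeR).

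Type 1 cell genes were higher in lung for 12 of 13, at a median of 6.42. Ager, the receptor for advanced glycation end products that marks type 1 cells (Chr 17, 34597862 to 34600936, plus strand), was at 1472 to 2270.4 CPM (median 1876) in lung and at most 18.5 CPM elsewhere. Cldn18, a tight junction protein, was at 788 to 1140.0 CPM (median 942), Aqp5, a water channel, at 301 to 458 CPM (median 359.7), and Rtkn2, rhotekin 2, at 252 to 359 CPM (median 310.3). For all 4 the nearest tissue was muscle, at differences of 5.45 to 7.52. Hopx, which encodes a homeodomain-only cofactor, and Cav1, the coat protein of caveolae, passed in each contrast by less: Hopx exceeded heart by 0.66 (SE 0.12) and Cav1 exceeded adrenal by 0.54 (SE 0.15), with overlapping libraries for Cav1. The exception was Spock2, a proteoglycan, at 404 to 721 CPM in lung and 759 to 1124 CPM in hypothalamus.

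Airway secretory genes were higher in lung, and several were uneven between lung libraries. Of 12 club and goblet cell genes tested, 11 were higher in lung than in each tissue, at a median of 9.61 (9.56 with genes that had no count in a group set at their floor). Scgb3a2, a secretoglobin of small airways, was at 344 to 725 CPM (median 555) and had no count in 4 of the 5 other tissues. Muc5b, the gel-forming mucin, was at 12.8 to 252 CPM (median 42.8), and Bpifa1, a secreted airway defence protein, at 10.3 to 1427 CPM (median 256), a range in which the lowest lung library overlapped other tissues. Reg3g, an antibacterial lectin, was at 0.846 to 222 CPM (median 26.6) and also overlapped. Scgb1a1 and Cyp2f2, the P450 of club cells, varied much less, at 1601 to 2072 CPM and 1823 to 3209.5 CPM. Hp, haptoglobin, did not separate lung from adrenal, at 734 to 1308 CPM against 456 to 1810.2 CPM, a difference of 0.44 (SE 0.42, adjusted p = 0.33) by edgeR.

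Some airway secretory genes, chosen after their values were seen, were high in the same lung libraries. Bpifa1 was highest at circadian times 54, 26 and 38 h, with 1427, 861 and 709 CPM, and lowest at 62 and 18 h, with 10.3 and 30.6 CPM. Reg3g and Muc5b shared the high libraries at 54 and 38 h, with 222 and 192 CPM of Reg3g and 168 and 252 CPM of Muc5b. Scgb1a1 had another order, with its highest level, 2072 CPM, at 18 h and 1702 CPM at 38 h. None of Bpifa1, Muc5b and Reg3g passed the rhythm test (adjusted p = 0.67, 0.8 and 0.47, edgeR with a 24 h cosine and sine). Krt5, the basal cell keratin of large airways, was also highest at 54 h, at 7.53 CPM, with no count at 18, 22 and 62 h. The part of the airway sampled in these values was not tested. Among markers of neighbouring tissues, the thyroid and oesophagus list summed to 1.78 to 3.46 CPM over lung libraries, the cartilage list to 15.9 to 87.9 CPM and the fat list to 17.8 to 221 CPM.

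At 38 h, 1 lung library held goblet cell genes that the others nearly lacked. Clca1, a secreted protein of goblet cells, was at 1376 CPM there and at most 20.8 CPM in the other 11. Chil4, a chitinase-like protein, was at 360.1 against at most 0.286 CPM, and Muc5ac, the inducible airway mucin, at 41.8 against at most 5.21 CPM. Clca1 and Chil4 were picked after their values were seen, and none of the 3 passed the filter on low counts, so they were not tested.

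Most secreted and surface defence genes were higher in lung. Of 20 mucosal defence genes, 17 were higher than in each tissue, 11 of them at a fold of 4 or more, with a median of 5.295. Bpifa1, Bpifb1 and Reg3g are also on the club and goblet list and Lyz2 is on an alveolar list, so they are counted again here. Without the lung library at 26 h the count was 15, and without that at 30 h it was 16. Chil1, a chitinase-like protein, was at 615 to 931 CPM (median 738), at least 5.04 above every tissue on the log2 scale. Bpifb1, of the same protein family as Bpifa1, was at 5.15 to 478 CPM (median 63.7). Lyz1 and Lyz2, the lysozymes, were at 314 to 467 CPM and 2432 to 3739 CPM, against 5.83 to 40.4 CPM and 291 to 923 CPM in adrenal, the nearest tissue. The 3 without a call were Pigr, which carries IgA across epithelium and was higher in kidney, C3 and Il1r2.

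Ciliated cell genes were higher in lung, with hypothalamus the nearest tissue for most. Of 17 tested, 16 were higher than in each tissue, with a median of 1.72 against hypothalamus and 6.12 to 7.57 against the other 4. Foxj1, the regulator of motile cilia, was at 90.4 to 229.9 CPM (median 131) in lung and 23.2 to 38.4 CPM (median 27.7) in hypothalamus, a difference of 2.09 (SE 0.17, adjusted p = 2.9e-17) in edgeR's test, and at most 2.87 CPM in kidney. Tmem212, Ccdc153 and Dynlrb2, genes of motile cilia, were at 34.02 to 78.4 CPM, 98.8 to 231 CPM and 35.5 to 83.2 CPM, and exceeded hypothalamus by 2.52, 2.64 and 2.797. In all 4 genes the lung and hypothalamus libraries did not overlap. For Sec14l3, a lipid transfer protein of airway epithelium, kidney was nearest, at 12.996 to 24.6 CPM against 1528 to 2425 CPM in lung. Rfx3, a regulator of ciliary genes, was lower in lung than in hypothalamus (difference -1.06).

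None of the genes listed for basal cells (5 tested) or neuroendocrine cells (7 tested) was higher or lower in lung than in each tissue. Of all genes tested 13.9% were higher and 9.12% were lower. For lists this short, having no call is therefore not a result about these cells. The neuroendocrine list summed to a median of 19.9 CPM in lung, 3916 CPM in adrenal and 2287 CPM in hypothalamus. Trp63, the p63 regulator of basal cells, was at 0.378 to 5.42 CPM in lung and 10.2 to 16.8 CPM in muscle. Calca, the calcitonin gene-related peptide gene expressed by pulmonary neuroendocrine cells, was at 1.12 to 3.29 CPM (median 2.34) in lung and 3.83 to 6.43 CPM in hypothalamus. Chga, a granule protein of endocrine cells, was at 0.143 to 0.455 CPM in lung and at a mean of 1656 CPM in adrenal.

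Promoters of these epithelial genes are shown because members of the alveolar and ciliated lists moved together. The 250 bases before the start site are printed from the RefSeq table of build GRCm38.p6, on the strand of the gene, 5′ to 3′. Capitals mark the motifs searched on both strands: CTCAAG, a core bound by NKX2-1, TGTTTAC and TGTTTGC, bound by forkhead factors, GTTGCC, a part of the X-box bound by RFX factors, and TATAAA. The 3 type 2 cell genes Sftpb (chr6:72304360-72304609, plus strand), Sftpa1 (chr14:41131538-41131787, plus strand) and Lamp3 (chr16:19706366-19706615, minus strand) come first. The ciliated genes Ccdc153 (chr9:44240427-44240676, plus strand) and Dynlrb2 (chr8:116504765-116505014, plus strand) follow.
Sftpb: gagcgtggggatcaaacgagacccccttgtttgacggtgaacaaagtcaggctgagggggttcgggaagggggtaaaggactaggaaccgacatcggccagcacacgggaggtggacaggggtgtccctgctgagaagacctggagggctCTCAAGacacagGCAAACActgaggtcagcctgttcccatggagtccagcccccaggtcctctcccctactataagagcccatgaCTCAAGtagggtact
Sftpa1: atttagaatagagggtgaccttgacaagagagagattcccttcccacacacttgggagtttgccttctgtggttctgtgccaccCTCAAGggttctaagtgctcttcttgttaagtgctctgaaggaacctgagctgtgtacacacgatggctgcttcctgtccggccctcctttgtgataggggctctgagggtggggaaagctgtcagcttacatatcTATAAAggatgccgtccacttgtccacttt
Lamp3: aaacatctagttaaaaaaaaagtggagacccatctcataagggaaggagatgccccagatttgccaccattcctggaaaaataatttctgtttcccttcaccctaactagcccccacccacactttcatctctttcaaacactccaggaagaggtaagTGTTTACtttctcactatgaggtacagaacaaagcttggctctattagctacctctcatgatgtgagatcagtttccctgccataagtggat
Ccdc153: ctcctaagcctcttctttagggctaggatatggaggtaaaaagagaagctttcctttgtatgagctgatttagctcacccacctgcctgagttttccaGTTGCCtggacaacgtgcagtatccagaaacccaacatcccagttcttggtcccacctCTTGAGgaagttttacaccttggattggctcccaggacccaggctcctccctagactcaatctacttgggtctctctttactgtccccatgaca
Dynlrb2: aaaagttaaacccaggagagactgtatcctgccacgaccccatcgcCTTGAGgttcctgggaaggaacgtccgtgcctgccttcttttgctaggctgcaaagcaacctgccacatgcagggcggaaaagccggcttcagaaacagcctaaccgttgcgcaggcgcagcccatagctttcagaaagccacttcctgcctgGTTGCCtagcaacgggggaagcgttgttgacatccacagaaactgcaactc
CTCAAG occurs at 100 and 15 bases before the start of Sftpb, with a forkhead match on the other strand at 88 bases, and Lamp3 has TGTTTAC at 92 bases. Dynlrb2 and Ccdc153 hold GTTGCC at 51 and 152 bases, and CTCAAG on the other strand. These positions count back from the start site to the first base of the match. Every promoter printed holds at least 1 of the motifs, and none is of a type 1 cell gene. The promoters of other members, among them Ager, Aqp5, Slc34a2 and Sec14l3, hold none of the motifs, so those printed are not typical of their lists.

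Windows of 300 bases, 250 before to 50 after each start, gave the shares of promoters with each motif. GTTGCC was in 8 of 14 windows (57.1%) of the 13 ciliated genes that were higher in lung and had an entry, against 12.5% of all 32851 windows and 17.6% of the 535 windows of lung-high genes. Over the other lists its share ran from 0% to 40% (2 of 5 class II windows), with 25% for vascular tone genes and 21.4% for type 1 genes. Neither forkhead motif was in a ciliated window. CTCAAG was in 4 of 11 windows (36.4%) of the type 2 cell genes higher in lung and 4 of 10 (40%) of the club and goblet genes. It was in 26.7% of lung fibroblast windows, in 21.4% of those of type 1 and of ciliated genes and in 18.6% of the windows of genes 4-fold lower in lung, and over the other lists its share ran from 0% to 50% (1 of 2 mesothelial windows). Over all lung-high genes its share was 15.9%, the same as over all windows. TGTTTAC was in 8.22% of lung-high windows against 3.65% of all, and TATAAA in 19.3% against 13.6%. Entries were found for 434 of the 621 lung-high genes, and not for Sftpc, Scgb1a1 or Foxj1. The windows of 1 gene can overlap, and a match is not a site that was shown to be bound.

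Most regulators of lung epithelium and mesenchyme were higher in lung. Of 36 transcription factors listed for lung, 24 were higher than in each tissue, 8 at a fold of 4 or more, and 1 was lower, with a median of 3.77. Nkx2-1, which specifies lung epithelium and also parts of the hypothalamus (Chr 12, 56531958 to 56536908, minus strand), was at 217 to 263 CPM (median 243) in lung and 17.6 to 37.1 CPM (median 33.7) in hypothalamus, a difference of 2.69 (SE 0.15, adjusted p = 1.1e-17) by edgeR. It had no count in adrenal or heart. Foxa2, a forkhead regulator of endoderm, was at 50.9 to 81.1 CPM (median 67.6), and Foxf1 and Tbx4, regulators of lung mesenchyme, at 144 to 303 CPM (median 193) and 47.3 to 97.9 CPM (median 65.9). No library of another tissue reached the lung range for these 3 genes, and their smallest differences were 6.78, 6.75 and 3.11. Sox9, a marker of embryonic tip progenitors and cartilage, was lower in lung than in each tissue, at 0.238 to 2.91 CPM (median 0.597) against 0.318 to 11.4 CPM in kidney, though the ranges overlapped and it did not pass in every contrast with library totals alone. The 11 without a call include Sox2, higher in hypothalamus, Tbx3, higher in adrenal, and Tbx5, Gata6 and Meox2, higher in heart.

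Hox genes encode position along the body axis. Of 32 tested, Hoxa5 and Hoxa2 were higher in lung than in each tissue and 0 were lower, beside 13.9% and 9.12% of all genes tested, at a median of -1.17. Hoxa5 was at 45.99 to 86.5 CPM (median 67.1) in lung and 13.2 to 26.3 CPM in adrenal. Hoxb9, Hoxa9 and Hoxc8, of the posterior part of the clusters, were at no more than 0.116 CPM in any lung library, while adrenal held a mean of 139.6 CPM of Hoxb9 and kidney 61.5 CPM of Hoxa9. With library totals alone 4 Hox genes were higher than in each tissue.

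Endothelial genes were higher in lung than in the other 5 tissues for 17 of 22, at a median of 3.197. Calcrl, the receptor subunit for adrenomedullin, was at 933 to 1455 CPM (median 1258) in lung and at a mean of 37.7 CPM in heart, the nearest tissue, a difference of 4.43 (SE 0.096, adjusted p = 6.6e-45) in edgeR's test. Prx, a scaffold protein, and Tmem100, a target of BMP signalling in endothelium, were at 179 to 370.0 CPM (median 290.5) and 395 to 609.7 CPM (median 506), with smallest differences of 2.91 and 3.29. General endothelial genes passed by less: Pecam1 exceeded heart by 1.104 (SE 0.09) and Cdh5 by 0.67 (SE 0.12). The 5 without a call were Car4, lower than in kidney (difference -0.38), Ednrb, lower than in hypothalamus (difference -0.35), and Gpihbp1, Kdr and Aplnr, none of which passed as higher than in heart. For Gpihbp1, which carries lipoprotein lipase to the capillary lumen, the lung and heart means were 121 and 94.8 CPM before scaling by trimmed means, and the fitted difference was of the other sign, at -0.26 (SE 0.13, adjusted p = 0.066) by edgeR.

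Of 18 genes of vascular tone and the pulmonary vessels, 10 were higher in lung than in each tissue, beside 13.9% of all genes tested. Hpgd and Slco2a1, which break down and take up prostaglandins, were at 647 to 1000.2 CPM (median 804) and 383 to 768 CPM (median 547), at least 4.89 and 3.33 above each tissue on the log2 scale. Acvrl1 and Bmpr2, receptors of the BMP pathway that are mutated in hereditary pulmonary vascular disease, were at 412 to 726 CPM (median 582) and 606 to 934 CPM (median 742). Gdf2, a ligand of Acvrl1, was low but higher than elsewhere, at 0.04201 to 4.05 CPM (median 1.96), and its libraries overlapped with others. Ace, the angiotensin-converting enzyme, was at 529 to 1089.7 CPM in lung and 362 to 543 CPM in kidney. Agtr1a, the angiotensin II receptor, was higher in adrenal, at 28.6 to 372 CPM against 10.6 to 19.1 CPM in lung. Nos3, the endothelial nitric oxide synthase, did not differ from the mean of 5 tissues beyond its error, with a difference of -0.03 (SE 0.09, adjusted p = 0.83) by edgeR.

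Of 5 lymphatic markers 2 were higher than in each tissue, beside 13.9% of all genes tested. These are too few genes to read the count as a result about lymphatic vessels. Lyve1, the hyaluronan receptor, was at 210.1 to 442 CPM (median 324) in lung, 3.08 (SE 0.17) above heart, and Mmrn1, multimerin, was also higher than in each tissue. Prox1, the regulator of lymphatic identity, was lower than the mean of 5 tissues (difference -2.94), at 2.21 to 5.801 CPM in lung and a mean of 73.9 CPM in heart. Flt4, a receptor of lymphatic growth factors, was lower than in adrenal (difference -0.28).

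Lung fibroblast genes were higher than in each tissue for 12 of 15, at a median of 3.88. Mfap4, a microfibril protein, was at 254 to 479 CPM (median 354), at least 4.52 (SE 0.18) above each tissue. Tcf21, a regulator of lipid-bearing fibroblasts, was at 67.2 to 139 CPM (median 104) in lung and 16.7 to 25.2 CPM in kidney, and Wnt2, a ligand of lung mesenchyme, at 11.5 to 22.8 CPM (median 17.2). Fgfr4, Col14a1 and Pi16 had no call and were lower in lung than in kidney, adrenal and heart, at differences of -1.797, -1.29 and -2.43. Smooth muscle and pericyte genes were higher for 7 of 14 and lower for 1, beside 13.9% and 9.12% of all genes tested. Cnn1 and Actg2, contractile proteins of smooth muscle, were at 7.596 to 58.96 CPM (median 28.8) and 3.502 to 25.5 CPM (median 11.2), with smallest differences of 3.36 and 3.75. Cspg4, the NG2 proteoglycan of pericytes, was lower than in each tissue, with overlapping libraries, and was no longer so with library totals alone.

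Of 17 matrix genes, Eln and Mfap4 were higher than in each tissue, a share near the 13.9% of all genes tested, at a list median of 1.41, and 4 were with library totals alone. Eln, elastin, was at 97.7 to 223 CPM (median 147) in lung and 46.1 to 131 CPM in adrenal, a difference of 1.07 (SE 0.14, adjusted p = 2.0e-10) by edgeR. Col1a1 and Col3a1, the fibrillar collagens, were higher in adrenal, at differences of -1.33 and -1.17, lung minus adrenal. Col4a3 and Col4a4, the basement membrane chains shared by lung and kidney, were above the mean of 5 tissues by 4.07 and 3.004 and below kidney, at differences of -1.16 and -1.54.

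Mesothelial genes, from the pleural surface, were higher in lung for 4 of 5, and 1 lung library nearly lacked them. Upk3b was at 3.65 to 230.1 CPM (median 138) in lung and Msln, mesothelin, at 3.82 to 191 CPM (median 106). At circadian time 22 h both were far below the rest, at 3.65 and 3.82 CPM against at least 102 and 83.7 CPM in the other 11. Lrrn4, on the same list, and Muc16, a mucin also made by mesothelium, were lowest in the same library, at 0.966 and 0.756 CPM. Without that library the count was again 4 of 5. Adrenal was the nearest tissue for all 4.

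Immune genes were often higher in lung, and adrenal was the nearest tissue for all 13 lymphoid and all 6 class II genes that passed. Alveolar macrophage genes were higher than in each tissue for 8 of 15, beside 13.9% of all genes tested. Chil3, a chitinase-like protein, was at 311 to 699 CPM (median 477) and at least 6.94 above each tissue on the log2 scale. Siglecf, the surface lectin of alveolar macrophages, was at 11.3 to 21.8 CPM (median 14.2), and Marco, a scavenger receptor, at 11.6 to 29.7 CPM (median 13.5), 2.24 (SE 0.41) above adrenal with overlap. Ear1 and Ear2, ribonucleases, were at 22.6 to 37.3 CPM and 72.9 to 118 CPM, but they belong to a family of near-identical genes, so their split is uncertain. Among those without a call, Cd68 was at 24.04 to 46.6 CPM in lung and 22.3 to 84.1 CPM in adrenal, and C1qa, a complement gene of tissue macrophages on the other myeloid list, was lower in lung than in heart (difference -1.39).

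Other myeloid genes were higher for 12 of 16 and lymphoid genes for 13 of 18. Neutrophil genes were uneven: S100a8 and S100a9, the calprotectin subunits, were at 379 and 667 CPM at 30 h and at most 71.8 and 115 CPM in the other 11 lung libraries. Retnlg, a resistin-like hormone of neutrophils, was at 177 against at most 19.1 CPM. Without that library 12 of 16 still passed. Cd300e, a receptor of monocytes, was at 3.72 to 17.2 CPM (median 5.71), and Gzma, the granzyme of cytotoxic lymphocytes, at 11.2 to 33.4 CPM (median 21.9), both without overlap. The B cell genes Cd79b and Ms4a1 exceeded adrenal by 1.94 and 1.67, and the lung and adrenal ranges overlapped. With tissue means alone, 6 lymphoid genes passed, and with the first 24 h cycle alone, 4. The genes for class II antigen presentation passed in 6 of 7, among them H2-DMb1 at 1.66 (SE 0.17) and Cd74 at 0.89 (SE 0.195) above adrenal. With the first cycle alone, 2 passed. The lymphoid list summed to 136 to 4644 CPM (median 230) over adrenal libraries and 219 to 682 CPM (median 438) over lung libraries. The class II list summed to 719 to 4026 CPM (median 869) in adrenal and 1748 to 2594 CPM (median 2120) in lung. For both lists the highest adrenal library lay above every lung library.

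Thymus genes were detected in some of the same libraries. Rag1, the recombinase of developing lymphocytes, was at 14.5 CPM at 26 h and at most 1.495 CPM in the other 11 lung libraries, and Dntt at 8.51 against at most 1.45 CPM. The thymus list summed to 3.81 to 35.3 CPM over lung libraries and reached 40.7 CPM in 1 adrenal library. Without the lung library at 26 h, 12 lymphoid genes passed. The same library was high for Prg4, lubricin, at 267 CPM against at most 33.7, for Cd5l, a macrophage protein, at 70.9 against at most 7.64, for the skeletal muscle list, at 3.45 times its lung median, with Ckm, the muscle creatine kinase, at 157 against at most 97.8 CPM, and for Alas2, the haem enzyme of red cells, at 1039 against at most 536 CPM. What these signals contribute to the immune results was not tested.

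Salt and water transport genes differed least from kidney by their median. Of 16, 8 were higher than in each tissue and 1 was lower, with a median of 1.02 against kidney and 5.13 to 5.36 against the other 4. Slc34a2 and Aqp5 are also on the alveolar cell lists. The sodium channel subunits Scnn1a, Scnn1b and Scnn1g exceeded kidney by 1.24, 1.25 and 1.75, and Scnn1g was at 164 to 256 CPM (median 213) in lung against 40.3 to 57.8 CPM in kidney. Slc6a14, an amino acid transporter, was at 116 to 209 CPM (median 159) and at least 6.99 above each tissue. Cftr, the chloride channel, was at 11.1 to 25.1 CPM in lung and 11.6 to 20.4 CPM in kidney, a difference of -0.17 (SE 0.15, adjusted p = 0.29) by edgeR. Slc4a4, a sodium bicarbonate transporter, was lower than in each tissue, at 21.9 to 37.7 CPM (median 30.7), but not with library totals alone.

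Enzymes of xenobiotic metabolism were higher in lung than in each tissue for 12 of 20, 8 at a fold of 4 or more. Cyp2f2, Cbr2 and Aldh1a1 are also on the club and goblet list. Cyp2f2 was at 1823 to 3209.5 CPM (median 2353) in lung, and its nearest tissue was adrenal, at 14.98 to 229 CPM. Cyp2b10, a P450, was at 276 to 591 CPM (median 360.0), with a smallest difference of 6.46. Cbr2, the carbonyl reductase of lung, was at 2036 to 3045 CPM in lung and 65.2 to 108 CPM in muscle. Cyp2e1 and Cyp4b1, further P450 genes, were higher in kidney, at differences of -7.15 and -2.37, lung minus kidney.

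Growth and morphogen signalling genes passed in 14 of 27, at a median of 2.23. Wnt3a, a ligand of the canonical Wnt pathway (Chr 11, 59248033 to 59290752, minus strand), was at 22.98 to 42.2 CPM (median 30.2) in lung and had no count in 2 of the other tissues. It was 7.79 (SE 0.29, adjusted p = 2.0e-26) above muscle, the nearest, by edgeR. Areg, amphiregulin, an EGF receptor ligand, was at 3.54 to 9.202 CPM (median 6.44), and Bmp5, a BMP ligand, at 75.9 to 136 CPM (median 90.2). Hhip, an inhibitor of hedgehog ligands, and Wnt7a, a Wnt ligand, were higher than in each tissue, but hypothalamus followed closely, at differences of 1.23 (SE 0.15) and 0.52 (SE 0.21). The hedgehog ligand Shh was higher in adrenal, at 0.787 to 130.4 CPM against 20.5 to 37.9 CPM in lung, and Fgf10, a growth factor of lung budding, differed from adrenal by -0.21 (SE 0.18, adjusted p = 0.28).

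**Figure D2:**
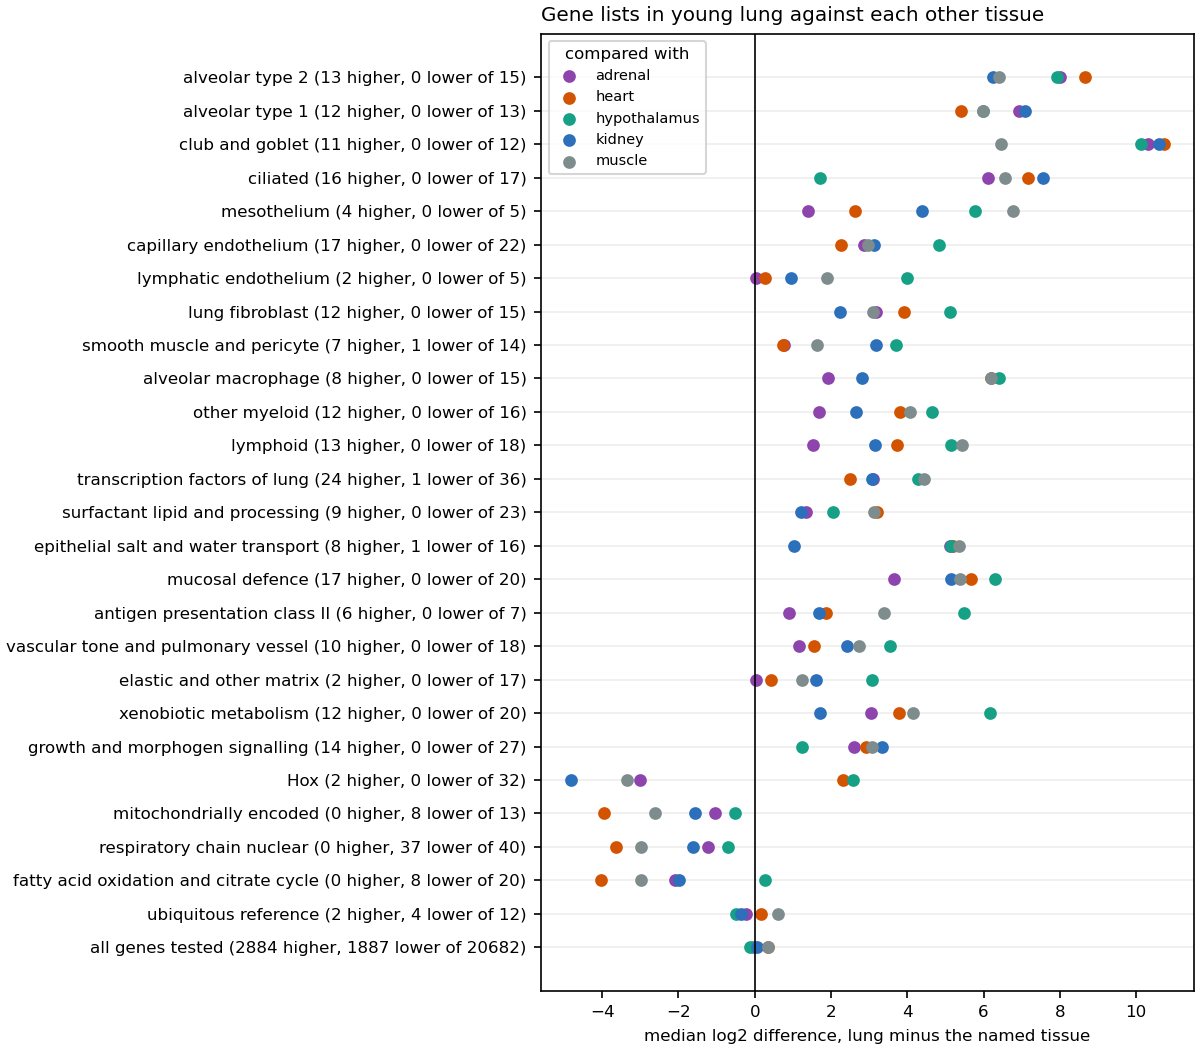
Median log2 difference of each gene list, lung minus the named tissue, with all genes tested in the last line; the label gives how many of the genes tested were higher or lower than in each of the 5 tissues. The alveolar, club and goblet and ciliated medians lie above 0 against every tissue, lowest at 1.72 for ciliated genes against hypothalamus, and the mitochondrially encoded and nuclear respiratory chain medians lie below 0 against every tissue.

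Genes of the respiratory chain were lower in lung than in the other tissues. Of 40 nuclear genes of the respiratory chain and ATP synthase, 37 were lower than in each tissue, where 9.12% of all genes were, at a median of -2.06. Cyc1, cytochrome c1, was at 68.7 to 96.5 CPM (median 80.8) in lung, a mean of 1100.2 CPM in heart and 143 CPM in hypothalamus, the nearest tissue, a difference of -1.03 (SE 0.07, adjusted p = 2.7e-20) in edgeR's test. Ndufa10 and Ndufs1 of complex I and Uqcrc1 of complex III had differences of -2.62, -2.52 and -2.61 to the mean of 5 tissues. The list's median was lowest against heart, at -3.63, and nearest to 0 against hypothalamus, at -0.69. The 3 without a call were Ndufa2, Sdhd and Atp5h, and with library totals alone 33 of 40 were lower.

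The genes encoded by the mitochondrial genome were lower than in each tissue for 8 of 13, beside 9.12% of all genes tested, at a median of -1.81. With library totals alone 6 were lower. mt-Co1, a subunit of cytochrome oxidase, was at 3316 to 4393 CPM (median 3807) in lung, a mean of 18596 CPM in heart and 4444 CPM in hypothalamus. mt-Nd4l and mt-Atp8 were at no more than 1.48 and 0.1804 CPM in any lung library and had no call. Copies of mitochondrial sequence in nuclear chromosomes make the counts of all these genes uncertain.

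**Figure D3:**
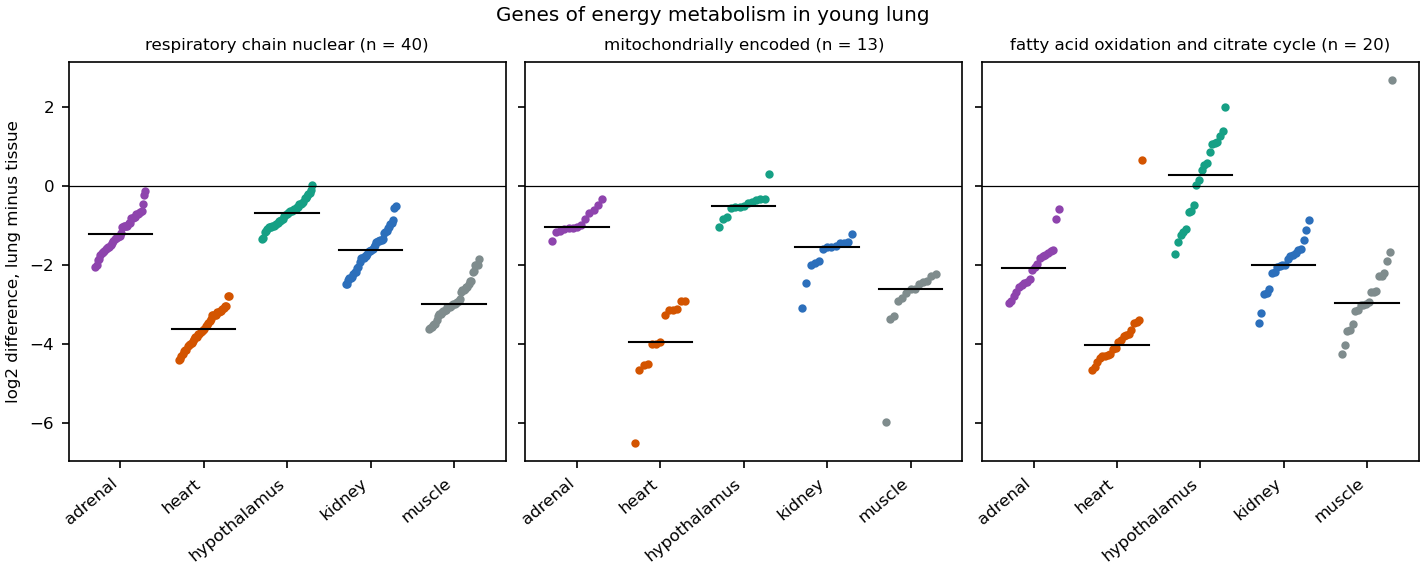
Log2 difference of single genes, lung minus each tissue, for nuclear respiratory chain genes, mitochondrially encoded genes and genes of fatty acid oxidation and the citrate cycle; each point is a gene and lines are medians. All 40 nuclear respiratory chain genes lie below 0 against adrenal, heart, kidney and muscle, with medians from -3.63 in heart to -0.69 in hypothalamus, and the last list spreads to both sides of 0 against hypothalamus.

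Most citrate cycle genes on the list were below hypothalamus, with Idh2 above it, and no fatty acid oxidation gene was below it by its fitted difference. The 8 genes of this list of 20 that were lower than in each tissue all belong to the citrate cycle. Among them were Cs, the citrate synthase, Idh3a, Ogdh, Sucla2, Suclg1, Fh1 and Mdh2. The 11 genes of fatty acid oxidation on the list differed from hypothalamus by 0.01 for Hadhb upwards. Acaa2, the last enzyme of the spiral, was the furthest above hypothalamus, at 24.9 to 37.1 CPM there and 112 to 171 CPM in lung, and was below heart (difference -3.96). Cpt1a, the entry step of fatty acids into mitochondria, exceeded muscle by 2.67 (SE 0.09) and was below kidney (difference -2.704).

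Common reference genes were not level across these tissues. Of 12 tested, 4 were lower in lung than in each tissue, beside 9.12% of all genes, among them Sdha, Pgk1 and Gapdh. Actb and B2m were higher, and 2 of 12 is near the 13.9% of all genes. The other 6 had no call. Sdha is also on the respiratory chain list. Pgk1, a glycolytic enzyme, was at 130.1 to 169 CPM in lung and 864 to 1105 CPM in muscle, and Sdha, a complex II subunit, differed from the mean of 5 tissues by -2.26. Gapdh has many pseudogene copies, so its count is uncertain. Tbp, a general transcription factor, differed from the mean of 5 tissues by 0.17 and Rpl13a, a ribosomal protein, by -0.05.

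The 12 most selective lung-high genes by their smallest difference were Fam162b, Stx19, Tff2, Muc5b, Cxcl17, Sfta2, Wnt3a, Npw, Itprid1, Reg3g, Gabrp and Lamp3. Fam162b was at 4.59 to 12.99 CPM (median 8.85) in lung, with 1 count in all adrenal libraries, 1 in all muscle libraries and 0 elsewhere, so the size of its fitted difference rests on single counts. Stx19, an epithelial syntaxin, was at 8.12 to 13.03 CPM (median 10.97), and Sfta2, a surfactant-associated secreted protein, at 34.9 to 52.1 CPM (median 43.5), with smallest differences of 8.22 and 7.81. Lamp3, the lamellar body membrane protein, was at 501 to 829 CPM (median 683) and Gabrp, a subunit of the GABA-A receptor, at 83.4 to 198 CPM (median 126). Tff2, a trefoil peptide of mucosa, was at 2.698 to 61.5 CPM (median 11.9) and Npw, neuropeptide W, at 15.04 to 25.1 CPM (median 18.1).

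The 12 genes furthest below all 5 tissues included regulators of metabolism and transporters. Slc38a3, a glutamine transporter, was at 0.0403 to 3.92 CPM (median 0.404) in lung and a mean of 102 CPM in muscle, and even adrenal, the nearest tissue, exceeded lung, at a difference of -5.58 (SE 0.57, adjusted p = 3.6e-13) in edgeR's test. Agt, angiotensinogen, was at 0.121 to 2.34 CPM (median 0.523) in lung, a mean of 344 CPM in hypothalamus and 6.92 CPM in heart. Ppargc1b, a coactivator of mitochondrial genes, was at 1.49 to 2.67 CPM (median 2.02) in lung, lower than in hypothalamus, its nearest tissue, at a difference of -2.23 (SE 0.13). Alpl, tissue-nonspecific alkaline phosphatase, was at 2.77 to 5.09 CPM (median 3.65) in lung and a mean of 287 CPM in kidney, and Lgr4, an R-spondin receptor, at 6.56 to 12.5 CPM (median 8.99) and 264 CPM. The other 7 were Tpd52l1, Efhd1, Paqr9, Fhod3, Tafa5, Cyp2u1 and Kcnn1, whose differences to their nearest tissue ran from -3.33 to -2.03.

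Compared with single tissues, lung had the most 4-fold higher genes against muscle and the most calls against hypothalamus. Genes called in either direction made up 87.9% against hypothalamus, 85.3% against muscle, 83.8% against kidney, 81.9% against heart and 79.8% against adrenal. The share higher in lung ran from 39% against adrenal, 40.6% against hypothalamus and 43.8% against kidney to 49% against muscle and 49.7% against heart. The share lower in lung was 47.3% against hypothalamus and 40.9% against adrenal, above the share higher in both, and 40.1% against kidney, 36.3% against muscle and 32.2% against heart. In lung, 5008 genes were at least 4-fold higher than in muscle (24.2%). Against adrenal the median absolute difference was 0.72, the smallest of the 5, and 1943 genes were at least 4-fold higher in lung (9.39%). The genes furthest below were organ genes: Cyp21a1 and Hsd3b1, steroid enzymes, against adrenal, Myl2 and Irx4 against heart, Slc6a11 and Avp against hypothalamus, Slc22a6 and Miox against kidney, and Myoz3 and Myhas against muscle. Irx4 had no lung count, against a mean of 45.1 CPM in heart. Myhas is antisense to myosin heavy chain genes and the counting is not stated to use strand, so its reads cannot be told apart from theirs. Against muscle the furthest above was Daw1, a dynein assembly factor, at 4.62 to 12.3 CPM (median 6.59) in lung with no muscle count.

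All 12 young muscle libraries held RNA of lung genes, and muscle was the nearest tissue for 7 of the 13 type 2 cell genes that passed. Sftpc was at 25.95 to 116 CPM (median 48.97) in muscle, 1.39% of its mean in lung, and Scgb1a1 at 37.3 to 136 CPM (median 66.7), 3.89% of lung. Sftpb, Sftpa1, Ager, Slc34a2 and Nkx2-1 were at 0.447%, 0.446%, 0.437%, 0.327% and 0.296% of their lung means. Sftpb was highest in muscle at 42, 30 and 34 h, the same libraries in which Sftpc and Ager were highest. In the muscle libraries of 18-month mice Sftpb was at 2.39 to 94.2 CPM (median 5.72), while in those of 27-month mice it had no count in any of 12. Where this RNA came from was not tested. Leaving muscle out of the comparison raised the number of lung-high genes from 621 to 653.

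**Figure D4:**
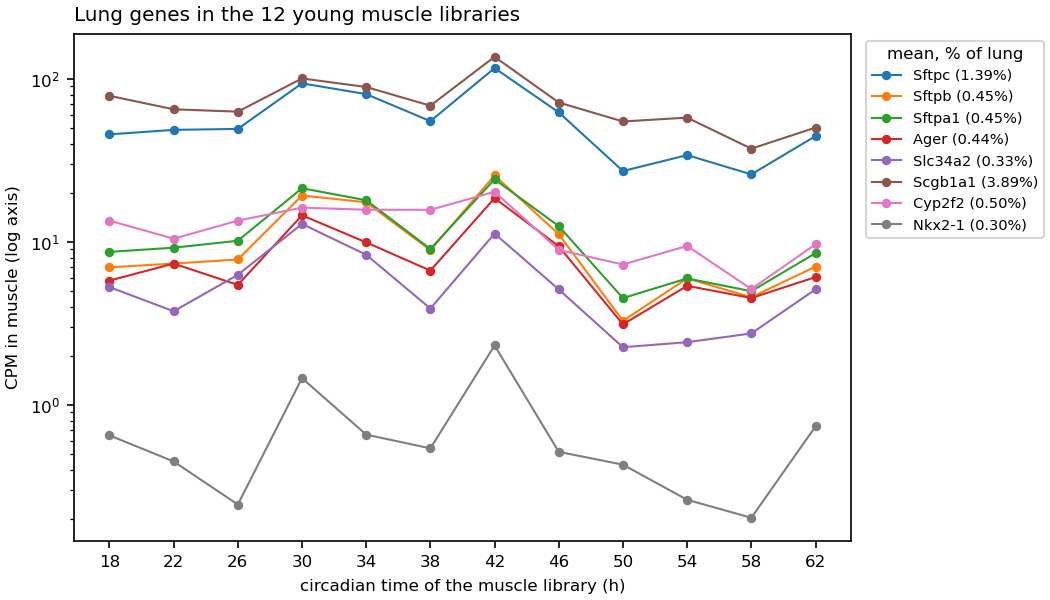
CPM of 8 lung genes in each young muscle library on a log axis, by circadian time of the library; the legend gives each gene's mean in muscle as a percentage of its mean in lung. Each of the 8 genes is highest at 42 h or 30 h, and Sftpc reaches 116 CPM at 42 h.

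Heart muscle genes were present in every lung library. In mice a sleeve of heart muscle runs along the pulmonary veins into the lung. Myl7, the atrial myosin light chain (Chr 11, 5896637 to 5898782, minus strand), was at 6.56 to 146 CPM (median 56.5) in lung and 0.242 to 3.81 CPM (median 1.65) in heart, a difference of 4.58 (SE 0.32, adjusted p = 3.1e-20) by edgeR. Myl4, a further atrial light chain, and Sln, sarcolipin, were also higher in lung than in each tissue, at 8.98 to 193 CPM and 1.37 to 43.8 CPM. Myh6, the alpha myosin heavy chain of all adult heart muscle, was at 14.4 to 409 CPM in lung and a mean of 19039.6 CPM in heart. Of the ventricular genes, Myl2 was at 0.121 to 1.27 CPM and Irx4 had no count in any lung library, while Myl3 was at 0.483 to 9.34 CPM and Myh7, which slow muscle also expresses, at 23.8 to 40.9 CPM. Of 12 genes on the heart muscle list these 3 were higher than in each tissue, and Nppa, the atrial natriuretic peptide, was at 0 to 73.8 CPM (median 7.202) in lung. Myl7, Myl4, Sln, Myh6 and Nppa were all lowest at 62 h, at 6.56 CPM for Myl7, and high at 42, 46 and 54 h, at 132, 146 and 120.3 CPM. The source of this RNA was not tested.

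Skeletal muscle genes were also counted in every lung library. Myh4, a fast myosin heavy chain, was at 60.03 to 402 CPM (median 111) in lung, and Ckm and Actn3, the fast muscle actinin, were at 23.7 to 157 CPM (median 54.5) and 8.94 to 66.1 CPM (median 17.4). Their differences to the mean of 5 tissues, an average of log2 levels, were 4.01, 1.12 and 0.699, and to muscle -8.54, -7.997 and -9.29. Muscle held so much more of each that lung was not above the plain average of their CPM. What muscle RNA contributes to other results in lung was not tested.

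**Figure D5:**
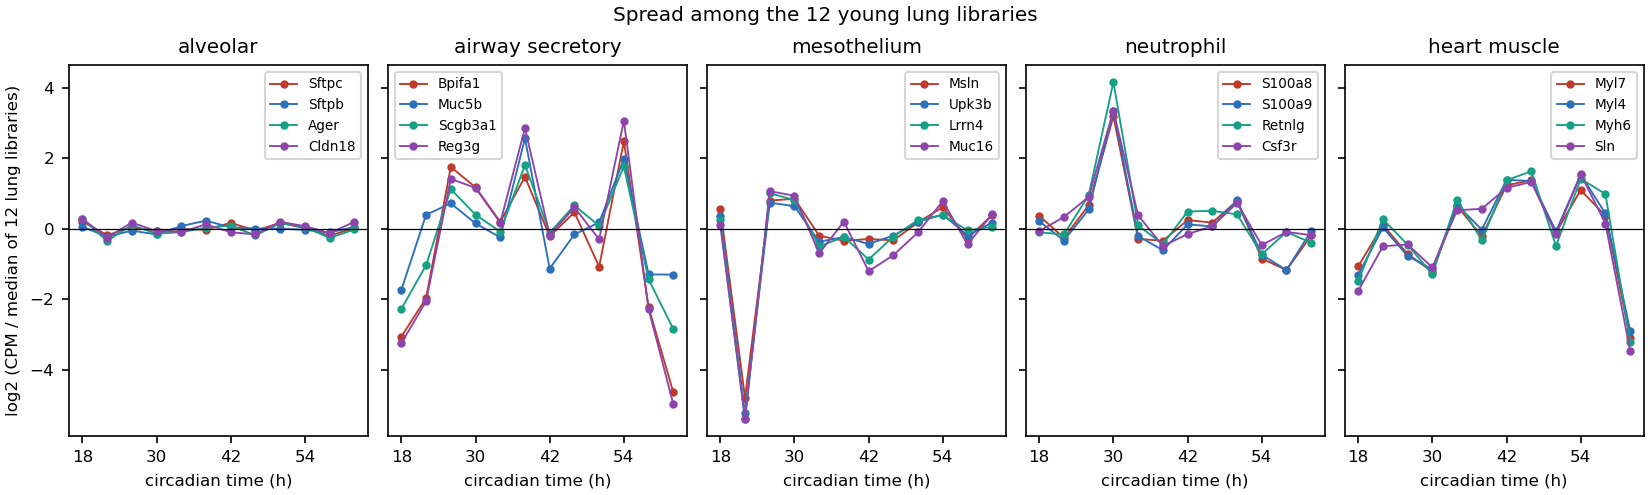
Level of genes of 5 kinds in each of the 12 young lung libraries, as log2 of CPM over the gene's median in lung, by circadian time. Alveolar genes stay near 0, the 4 airway secretory genes plotted are high at 38 and 54 h and low at 18 and 62 h, mesothelial genes drop at 22 h, neutrophil genes peak at 30 h and heart muscle genes are lowest at 62 h.

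Lung-high genes differed widely in their spread over the lung libraries. Among the 456 lung-high genes with a mean of at least 5 CPM, the coefficient of variation over the 12 libraries had a median of 26.8%. The lowest were Emp2, a membrane protein of type 1 cells, at 6.43%, Cnn2, a calponin, at 6.77% and Nkx2-1 at 6.93%, followed by Matn4, Icam1, Dram1, Pdlim2 and Sftpb at 7.18% to 8.29%. The highest was Slfn4, a myeloid gene, at 224%, followed by Retnlg at 195% and Cxcr2, the neutrophil chemokine receptor, at 194%. The library at 30 h had 296 of 12796 genes more than 2-fold from the median library and that at 26 h had 171, against 39 at 50 h.

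Lung-high genes were called rhythmic at about the share of all genes. A 24 h rhythm passed in 402 genes in lung (1.94% of those tested) and in 11 of the 621 lung-high genes (1.77%). Among those 11 was Acoxl, an acyl-CoA oxidase-like gene, whose adjusted p was 0.014, and 0.002 without the 30 h libraries of all tissues (edgeR). The myeloid genes Slfn4, Clec4e and Ly6g were also among them, and the lung library at 30 h stood apart for all 3, with Slfn4 at 170.1 CPM against at most 15.98 CPM in the other 11. Stfa2l1, also called rhythmic, was at 23.9 CPM at 30 h against at most 1.82 CPM in the other 11. Without the 30 h libraries Slfn4, Clec4e and Gm4956 did not pass (adjusted p = 0.092, 0.096 and 0.059, edgeR). Ly6g and Stfa2l1 were not tested there. The count of rhythmic genes in lung was between 238 and 579 with any single circadian time removed. Of list genes, Elovl1, a fatty acid elongase, passed with an amplitude of 0.35 on the log2 scale (adjusted p = 1.2e-04, edgeR), and Eln with 0.56 (adjusted p = 0.029). None of the surfactant protein genes Sftpa1, Sftpb, Sftpc and Sftpd passed.

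The same contrasts were fitted at 18 and 27 months. At 18 months 631 genes were lung-high (3.04%), of which 527 were shared with 6 months, 84.9% of the young list and 83.5% of the 18-month list. At 27 months 621 were lung-high (3.19%), of which 429 were shared, 69.1% of each list, and 549 of the young list were tested there. At all 3 ages 412 genes (66.3% of the young list) were lung-high. The 4-fold lower genes numbered 78 (0.376%) at 18 months and 98 (0.504%) at 27 months, and 36 of the 83 young ones were lower at all 3 ages. Whether the lists differ between ages was not tested.

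Some genes were high in lung and 1 other tissue. A gene was counted as shared when lung was at least 4-fold above 4 of the other tissues, each passing edgeR's test, and not 2-fold above the remaining one by the fitted difference, which is scaled by trimmed means, so that ratios of CPM can exceed it. By this rule, which was set after the data had been seen, lung shared 225 genes with hypothalamus (1.09% of those tested), 199 with kidney (0.962%), 161 with adrenal (0.778%), 44 with heart (0.213%) and 18 with muscle (0.087%). The genes named here are among those with the highest lung levels in each set, and none was lower in lung by its fitted difference. By the same rule the sets also hold genes far higher in the other tissue, among them Crip2 with heart, Cyp4b1 with kidney and Slc16a3 with muscle. Their fitted differences, lung minus that tissue, were -2.07, -2.37 and -5.37.

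With kidney, lung shared Inmt, an indolethylamine methyltransferase, at 1329 ± 166 CPM in lung and 691.9 ± 100.4 CPM in kidney (mean ± SD, n = 12 libraries each), a fitted log2 difference of 0.53. No other tissue had a mean above 50.8 CPM. Cdh1, the E-cadherin of epithelial junctions, was at 455 ± 73.5 CPM in lung and 209 ± 12.2 CPM in kidney, a fitted difference of 0.71, and at most 11.7 CPM as a mean elsewhere. With hypothalamus it shared Cadm1, a cell adhesion molecule, at 369.97 ± 38.4 CPM in lung and 316 ± 20.8 CPM in hypothalamus (fitted difference 0.017), and Lgi3, a secreted leucine-rich repeat protein, at 259 ± 24.5 CPM and 145 ± 14.7 CPM (fitted difference 0.63). With adrenal it shared Anxa2, an annexin, at 667 ± 73.8 CPM in lung and 472 ± 193 CPM in adrenal (fitted difference 0.44), and with heart Bcam, a laminin receptor, at 730.3 ± 62.4 CPM and 337 ± 21.5 CPM (fitted difference 0.503). With muscle the highest was Tspan8, a tetraspanin, at 206 ± 24.8 CPM in lung and 99.7 ± 9.46 CPM in muscle (fitted difference 0.14). Over the alternatives the counts ran from 118 to 284 for hypothalamus, 162 to 234 for kidney, 125 to 291 for adrenal, 38 to 64 for heart and 14 to 35 for muscle.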

How the data were processed

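Gene expression was measured by sequencing polyadenylated RNA. The deposited table holds raw counts per gene, which the authors made from reads aligned to GRCm38 (mm10) with HISAT2 and counted with HTSeq, per the submitters' processing notes. Tool versions, the annotation behind the counting and its strand setting were not given in the sources used here. Of 55376 lines, 11744 had no count in any of the 216 libraries of the series. Genes with low counts were removed with edgeR's filterByExpr (minimum count 10), leaving 20682. Counts were scaled by trimmed means and fitted with edgeR 4.0.16 (quasi-likelihood, R 4.3.3), with a mean and a 24 h cosine and sine for each of the 6 tissues. Lung was contrasted with each tissue and with the mean of the 5 on the log scale, each tissue weighing equally. P-values were adjusted by Benjamini-Hochberg over all genes tested at a threshold of 0.05. A joint test of the lung cosine and sine gave the rhythm calls. The fit was tested on simulated data. Log2 differences come from this fit, and CPM are counts over library totals.

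Named genes were the markers, the 12 most selective genes in each direction with at least 5 CPM and a standard symbol, the 4 members of each list furthest from the mean of 5, list members called against the list's direction, and the 2 extremes of each single contrast. Further genes, among them Clca1, Chil4, Prg4, Cd5l, Cxcr2 and list members used as examples, were chosen after their values were seen. The members and lists were chosen with earlier results of these data known. Some genes are on several lists, so the counts of different lists are not independent. No 2 libraries agreed within counting noise. Positions are from the GENCODE annotation of GRCm38 and promoters from RefSeq. Alternatives were DESeq2 1.42.0, other scalings, no filter, tissue means, a block for circadian time, equal depth, single cycles, libraries left out and the other 2 ages. Results for some genes are not reported here.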

Additional observations from a re-analysis of the deposited data

How the results depend on the processing

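Scaling by library totals alone gave 4799 genes lower than the mean of 5, 913 genes lower than each of 5, 4202 genes lower than heart and 4344 genes lower than muscle, and the share of calls higher in lung went from 54.2% to 71.97%, or from 60.4% to 81.99% among genes called against each tissue. Without a filter on low counts there were 1019 genes 4-fold higher than each of 5. At a fold of 2 in place of 4, 1435 were higher and 391 lower, and at 8, 302 and 26. With adrenal not compared the counts were 985 and 140, with hypothalamus not compared 984 and 155, and the count of genes 4-fold lower than each of 5 was 144, 206 and 157 with heart, kidney or muscle not compared. With DESeq2 601 of the 621 lung-high genes were called again. Leaving out each circadian time in turn gave 238 to 579 rhythmic genes in lung, the count of genes rhythmic in young lung being 256 without 42 h and 238 without 62 h. Without the lung libraries at 22, 26 and 30 h, chosen after seeing the data, 599, 601 and 589 of the 621 genes were called again. Of named genes, by the log2 difference of lung to the mean of 5, the muscle genes Actn3, Ckm and Myh4 (0.70, 1.12 and 4.01 in young libraries) and the adrenal genes Cyp11a1 and Star (-2.07 and -0.91) had the other sign in older libraries: Actn3 reversed at 18 months (-0.71) and 27 months (-2.49), as did Ckm (-1.86), Myh4 (-1.66), Cyp11a1 (0.084) and Star (0.022) at 27 months, and the cause was not tested. Libraries share a circadian time across tissues, and whether they share mice is not given in the sources used here. With circadian time as a replicate block there were 8921 genes higher than the mean of 5, 7981 genes lower than the mean of 5, 2940 genes higher than each of 5, 1874 genes lower than each of 5, and 644 and 83 at a fold of 4. The correlation of deviations between lung and same-time libraries had medians of 0.08 in muscle to 0.14 in kidney, 5 to 7 of 12 pairs exceeded 0.1, and 3 to 6 of 12 lung libraries correlated best with their own time. Depth limits genes of a few counts, and thinning all libraries to equal depth left 18567 genes tested and 513 of the 621 called.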
